A study of Mus musculus with 6 samples.

Results

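Plasmacytoid dendritic cell markers were followed in RNA from splenic CD11c+ dendritic cells sorted by flow cytometry. The marker set was fixed by gene name as Siglech, Bst2, Ly6d, Spib, Pacsin1 and Runx2, and all probe sets carrying one of these symbols in the platform annotation were taken. Of the 6 genes, 3 had a named probe set, namely Spib and Ly6d with 1 each and Pacsin1 with 2, out of 17097 genes with a named probe set in all. Siglech, Bst2 and Runx2 were not analysed here, so no statement below covers them.

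The knockout group was 3 samples labelled Map3k7CreER, and the wild-type group 3 samples labelled WT, all on a C57Bl/6 background. Mice of both groups had received tamoxifen for 3 days, which activates the CreER recombinase and so deletes Map3k7, the gene for the kinase TAK1. The labels do not name the promoter that drives CreER, and the deletion, the transgene and any effect of deletion outside dendritic cells come together in the knockout group and cannot be told apart. The labels do not say whether the samples of a group are separate animals, and the p-values therefore cover only the variation among these arrays, which may be technical. Each sample was hybridised to 1 Affymetrix array. The median probe set of an array read 3.77 to 3.81 on the log2 scale, and precision is limited by the number of arrays. As a check of the labels, Map3k7 passed as lower in knockout cells on 3 of its 5 probe sets, and on the brightest it read 4.04, 4.46 and 3.64 in the knockout arrays, against 6.68, 6.69 and 6.57 in the wild-type arrays.

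Plasmacytoid dendritic cells are the type I interferon producing branch of the dendritic cell family. They sense viral nucleic acids through endosomal Toll-like receptors, chiefly Tlr7 and Tlr9, and pass the signal through Myd88 to the interferon regulatory factor Irf7. Their identity rests on the transcription factor Tcf4, also called E2-2, while its antagonist Id2 favours conventional dendritic cells. In mice they carry low levels of CD11c on their surface, lower than conventional dendritic cells, so how many of them fall inside a CD11c+ gate depends on where the gate is set, which the labels do not give.

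Among the measured markers, Spib is an ETS-family transcription factor of plasmacytoid dendritic cells and B cells, Ly6d is a small surface protein that marks lymphoid precursors of both, and Pacsin1 is a cytoplasmic adaptor that bends membranes and is known from neurons and plasmacytoid dendritic cells. The 250 bases before a transcription start listed by RefSeq are shown for Spib, the marker with the clearest difference between the groups, and for Pacsin1, the marker with the smallest. They are from the RefSeq promoter table for GRCm38.p6, which held 2 of the 3 measured markers, and are read on the gene's strand. The Spib window is chr7:44532072-44532321 on the minus strand and the Pacsin1 window is chr17:27684989-27685238 on the plus strand. The Pacsin1 start is an internal one, 29.6 kb downstream of the first base of the gene in the same annotation, and which Pacsin1 start these cells use was not measured. Capitals mark matches on either strand to the E-box CANNTG, the kind of site that E proteins such as Tcf4 bind, and to the Runt-domain core TGTGGT.
Spib: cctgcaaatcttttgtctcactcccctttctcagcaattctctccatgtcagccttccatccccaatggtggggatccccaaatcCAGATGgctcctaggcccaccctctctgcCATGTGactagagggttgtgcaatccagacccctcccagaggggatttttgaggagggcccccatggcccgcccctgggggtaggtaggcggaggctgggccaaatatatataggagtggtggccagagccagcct
Pacsin1: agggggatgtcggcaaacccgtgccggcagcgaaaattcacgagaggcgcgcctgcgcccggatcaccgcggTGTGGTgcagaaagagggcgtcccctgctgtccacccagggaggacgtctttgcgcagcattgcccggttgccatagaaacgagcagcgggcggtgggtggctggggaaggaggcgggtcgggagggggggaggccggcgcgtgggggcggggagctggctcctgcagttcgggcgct

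The Spib window held 2 E-boxes, the first beginning 165 and the second 136 bases before the start, and the Pacsin1 window held 0. An E-box of this form is common, being present in 66.2% of the 32851 windows of the same length in the table. The Pacsin1 window held 1 match to TGTGGT, which 14% of windows contain, and the Spib window held 0. Neither window matched CAGGTG, the E-box form that E proteins prefer and which is itself one of the CANNTG sequences and which 17.2% of windows hold, or the core of the interferon-stimulated response element, which 2.98% hold. These matches describe the letters only, and no binding was measured.

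The measured markers gave signal above the array median in both groups. All 4 of their probe sets lay above it on 6 of 6 arrays, as did the representative probe sets of 53.8% of all genes, and the median is not a background level. Spib stood at the 86.7th percentile of all probe sets by its mean over the arrays, Ly6d at the 78.5th, and the 2 Pacsin1 probe sets at the 68.5th and the 62.2nd. RMA values carry no detection call, and Spib and Ly6d are also made by B-lineage cells, so these percentiles are a description of signal and not a count of cells.

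Spib was the marker that differed most between the groups. It read 7.65, 7.44 and 7.43 in knockout cells, against 8.20, 8.17 and 8.78 in wild-type cells on the log2 scale. The highest knockout array lay below the lowest wild-type array, and the knockout arrays lay closer together than the wild-type arrays, of which replicate 3 was the highest. The means were 7.51 ± 0.12 in knockout and 8.38 ± 0.34 in wild-type cells (SD, n = 3 each), a difference of -0.88 with a standard error of 0.17 and a 95% interval of -1.27 to -0.48, or a 1.84-fold lower signal in knockout cells. Adjusted over all 45037 probe sets this did not pass the threshold of 0.05 (limma, Benjamini-Hochberg adjusted p = 0.0635). A 2-sided exact permutation of the 6 arrays gave p = 0.1, the smallest that 3 against 3 arrays allow. Groups that do not overlap, with knockout cells lower, were also found for 10.6% of all genes.

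The side of the threshold on which Spib fell depended on the setting, as the plot of Spib under each setting shows. The difference stayed between -0.98 and -0.68 over 16 alternatives. It passed in 2 of them, with array weights (-0.80, limma adjusted p = 0.0471, a setting under which 0.93% of genes passed as lower) and when the values of a gene's probe sets were averaged and p-values adjusted over genes (-0.88, limma adjusted p = 0.0410, with 1.06% of genes passing as lower). With 1 array left out it passed in 0 of 6 fits, its limma adjusted p running from 0.0597 to 0.227.

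**Figure D1:**
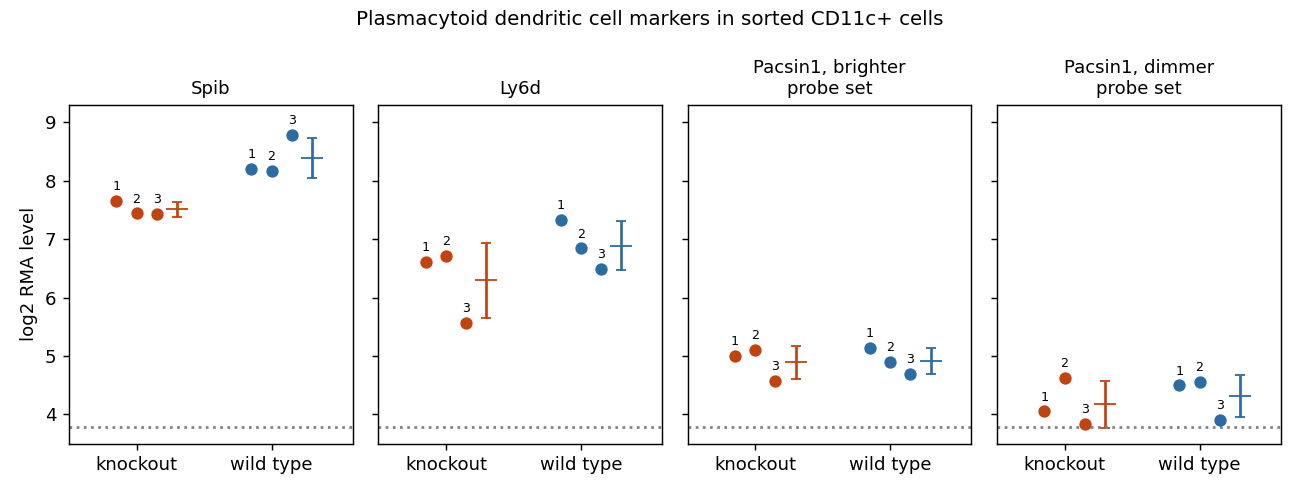
Log2 RMA levels of the 4 probe sets of the measured markers in each array, knockout on the left and wild type on the right of each panel; numbers beside points are the replicate numbers, bars are the mean ± SD of 3 arrays, and the dotted line is the mean of the array medians. All Spib points of knockout cells (7.43 to 7.65) lie below those of wild-type cells (8.17 to 8.78), whereas the groups overlap for Ly6d and for both Pacsin1 probe sets.

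**Figure D2:**
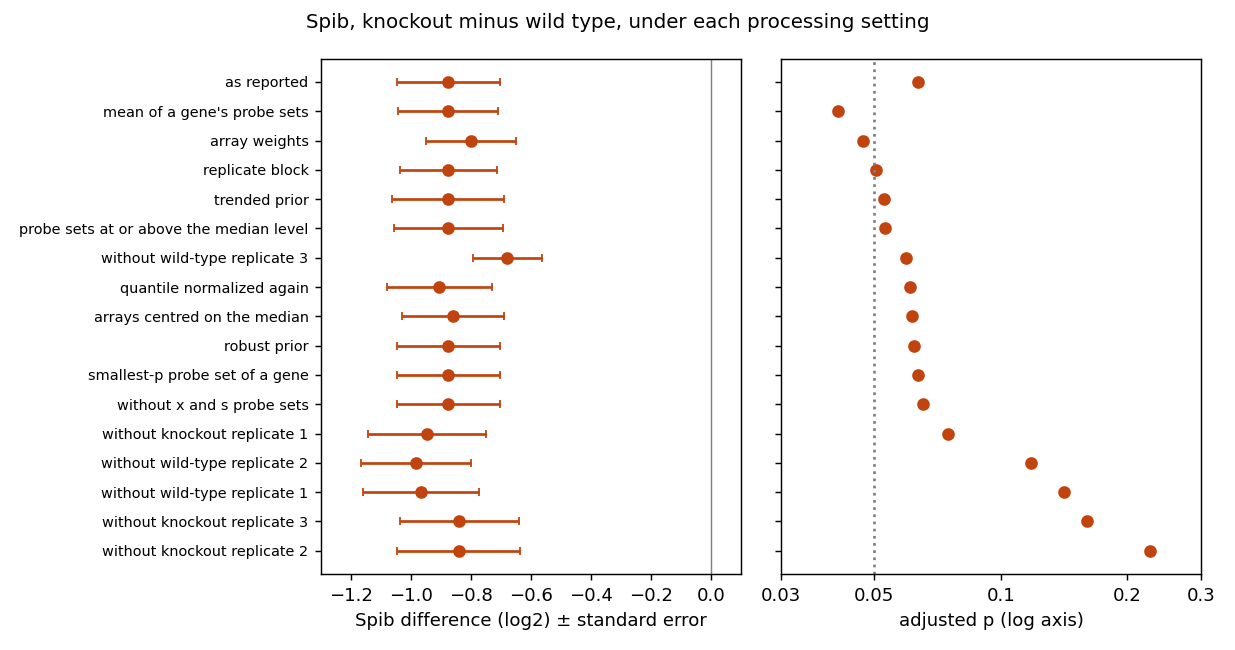
Spib under the reported setting and 16 alternatives: the left panel gives the knockout minus wild-type difference on the log2 scale with its standard error, and the right panel the limma adjusted p on a log axis with the threshold of 0.05 dotted. Every difference shown is negative, from -0.98 to -0.68, and the adjusted p runs from 0.0410 to 0.227.

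Ly6d had a lower mean in knockout cells, but its groups overlapped. The levels were 6.61, 6.71 and 5.56 in knockout cells, against 7.32, 6.84 and 6.5 in wild-type cells. Knockout replicate 3 stood apart at the low end, and the other knockout arrays lay within the wild-type range. The means were 6.29 ± 0.64 in knockout and 6.89 ± 0.42 in wild-type cells (SD, n = 3 each), a difference of -0.59 with a standard error of 0.32 and a 95% interval of -1.34 to 0.16 (limma adjusted p = 0.545). The value rested on a pair of arrays, since it was -0.23 without knockout replicate 3 and -0.37 without wild-type replicate 1. With the replicate number as a block in the fit, its standard error was 0.16 and it did not pass (limma adjusted p = 0.143).

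Pacsin1 was near the same level in both groups. Its brighter probe set read 5.0, 5.10 and 4.57 in knockout cells, against 5.13, 4.90 and 4.69 in wild-type cells, a difference of -0.02 with a standard error of 0.17 and a 95% interval of -0.41 to 0.37 (limma adjusted p = 0.984). Its dimmer probe set read 4.05, 4.62 and 3.84 in knockout cells, against 4.50, 4.55 and 3.91 in wild-type cells, a difference of -0.15 with a standard error of 0.24 and a 95% interval of -0.70 to 0.40 (limma adjusted p = 0.883). On both probe sets the groups overlapped and the intervals leave room for changes of either sign. The difference of the brighter probe set was positive without knockout replicate 3 (0.14) and without wild-type replicate 1 (0.09).

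With limma and Benjamini-Hochberg adjustment, 0 of the 3 measured markers passed in either direction. At an unadjusted p under 0.05 the count was 1, Spib (limma unadjusted p = 0.000966). Over all genes 1.08% passed as higher and 0.591% as lower, and 16.4% had an unadjusted p under 0.05. The median difference of the 3 markers was -0.59, beside -0.02 over all genes, and with 3 markers that median is the value of Ly6d. In bulk RNA, fewer plasmacytoid cells in the sort and less RNA of a gene per cell cannot be told apart.

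A list of 34 further genes associated with plasmacytoid dendritic cells, of which 30 were measured, showed how the rest of that expression programme stood. In it 0 genes passed as higher and 0 as lower (limma, 8 at an unadjusted p under 0.05), the median difference was 0.09, and 18 differences were positive and 12 negative. The shares over all genes were 1.08% higher, 0.591% lower and 16.4% at an unadjusted p under 0.05 (limma). With so few genes passing at all, 0 calls among 30 genes says little about the list. The mean log2 level over the list ran from 7.64 to 8.01 in the knockout arrays and from 7.68 to 7.98 in the wild-type arrays. The list was drawn up with earlier results of these data known.

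The smallest p-values of the list belonged to Cd4 and Cd8a, coreceptors that plasmacytoid cells share with T cells and with subsets of conventional dendritic cells. Cd4 read 6.25, 5.95 and 5.56 in knockout cells, against 6.79, 6.79 and 7.09 in wild-type cells, a difference of -0.97 (SE 0.18, limma adjusted p = 0.0535). Cd8a read 10.06, 9.81 and 9.00 in knockout cells, against 11.02, 11.48 and 10.78 in wild-type cells, a difference of -1.47 (SE 0.28, limma adjusted p = 0.0620). Neither passed, although neither pair of groups overlapped. In the list the groups did not overlap for 2 genes with knockout cells lower and for 6 with knockout cells higher. Of all 17097 genes, 1816 (10.6%) were such genes on the lower side and 1810 on the higher side. Cd4 and Cd8a both passed when only probe sets brighter than the median one were tested, with a trended prior, with array weights and without knockout replicate 1. In that last fit the protease Ctsl passed as higher (1.17, limma adjusted p = 0.0465), while the Fc receptor-like gene Fcrla passed as lower once wild-type replicate 3 was omitted (-1.01, limma adjusted p = 0.0314). With all arrays, the 2 probe sets of Cd4 ran from -0.97 to -0.18 and the 3 of Cd8a from -1.47 to -1.39. The 2 of Ctsl ran from 0.03 to 1.00 and the 3 of Fcrla from -0.54 to 0.08.

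Some genes tied to plasmacytoid identity, picked from the list for their roles after their values had been seen, did not pass. They do not stand for the list as a whole. Tcf4, the E protein that specifies the lineage, averaged 8.14 ± 0.02 in knockout and 8.04 ± 0.24 in wild-type cells (SD, n = 3 each), a difference of 0.10 with a 95% interval of -0.20 to 0.40. Bcl11a, a zinc finger factor needed for the lineage, averaged 10.02 ± 0.05 in knockout and 9.98 ± 0.09 in wild-type cells (SD, n = 3 each), with an interval of -0.18 to 0.25. For the chemokine receptor Ccr9 the means were 9.22 ± 0.22 in knockout and 9.04 ± 0.24 in wild-type cells (SD, n = 3 each), with an interval of -0.19 to 0.54, on a probe set that can match more than 1 transcript. Cox6a2, a cytochrome c oxidase subunit, averaged 4.99 ± 0.37 in knockout and 5.52 ± 0.42 in wild-type cells (SD, n = 3 each), with an interval of -1.09 to 0.05. Each of these intervals, all on the brightest probe set of the gene, includes 0. Differences ran from 0.10 to 0.49 over the 3 Tcf4 probe sets and from -0.02 to 0.30 over the 4 of Bcl11a. For the 4 of Ccr9 they ran from -0.07 to 0.22. The list's transcription factor gene Cbfa2t3 did not pass either (-0.29, limma adjusted p = 0.505). All 3 of its probe sets were lower in knockout cells, from -0.77 to -0.29.

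**Figure D3:**
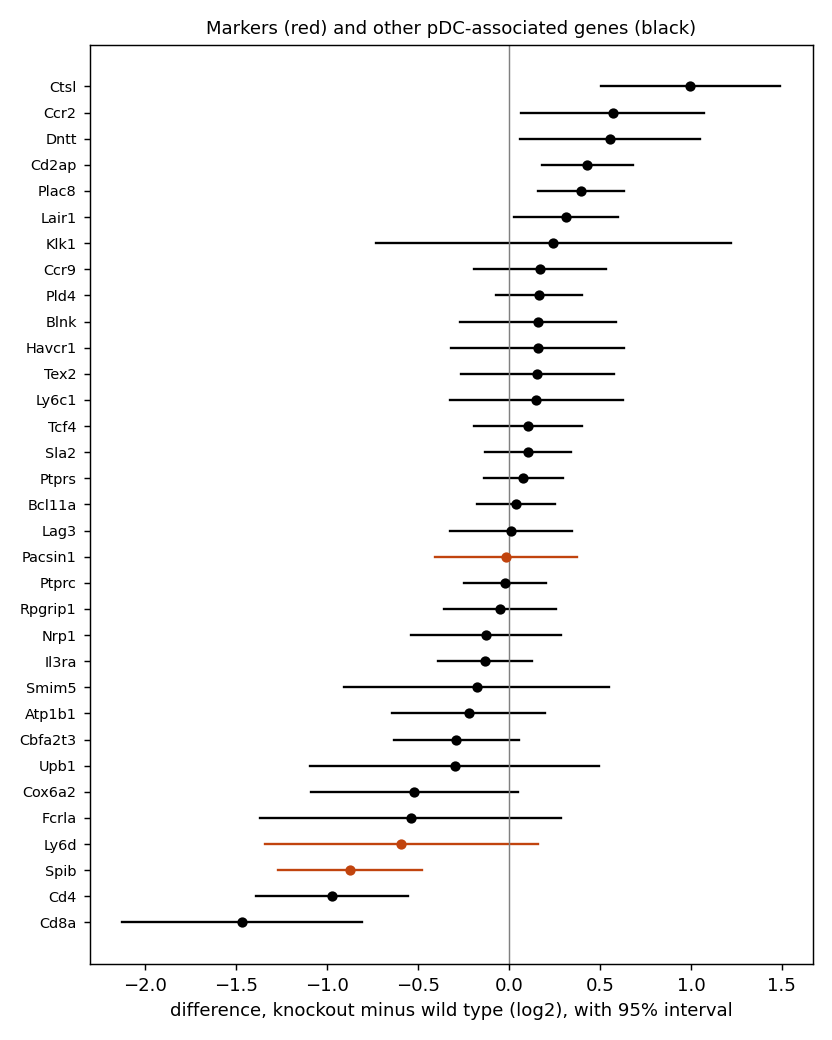
Differences of the 3 measured markers (red) and 30 other genes associated with plasmacytoid dendritic cells (black), knockout minus wild type on the log2 scale, with 95% intervals from the limma fit that are not adjusted for the number of genes; genes run from the most positive (Ctsl) to the most negative (Cd8a). Spib lies near the lower end with an interval of -1.27 to -0.48, and Pacsin1 near the middle with one of -0.41 to 0.37.

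All 3 measured markers had their lowest knockout value in replicate 3, as did 42% of all genes, though for Spib replicates 2 and 3 were nearly equal. Ly6d and Pacsin1 also had their lowest wild-type value in replicate 3. Of the 30 further genes, 11 were lowest in replicate 3 of both groups, among them Cox6a2, the pyrimidine catabolism enzyme Upb1, the membrane protein Smim5 and Cd8a. This order was common elsewhere as well, being shared by 20.8% of all genes and by 24.8% of those at or above the median level, against 36.7% of the 30. The SD of Ly6d among the knockout arrays, 0.64, was larger than the size of its difference between the groups, and the SD among the wild-type arrays was 0.42.

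By likeness of pattern over the 6 arrays, measured as the root mean square difference between profiles after each gene's own mean was subtracted, the genes nearest to Spib among 10509 were Dtx1 (0.0651), Fbrsl1 (0.0729) and Gypc (0.0744). Dtx1, a ubiquitin ligase of the Notch pathway, read 9.80, 9.56 and 9.53 in knockout cells, against 10.46, 10.44 and 10.92 in wild-type cells. It fell by 0.97 (SE 0.15, limma adjusted p = 0.0306), and with 1 array left out it passed in 2 of 6 fits, without knockout replicate 1 (-1.06, adjusted p = 0.0314) or without wild-type replicate 3 (-0.82, adjusted p = 0.0401). Gypc, a membrane glycoprotein best known from red blood cells, and Fbrsl1 did not pass (limma adjusted p = 0.0709 and 0.0525). Ly6d was most like the protein kinase genes Pkdcc (0.146) and Stk32c (0.151) and Xlr (0.164), and Pacsin1 most like Chmp6 (0.0472), Cotl1 (0.0480) and Tmem229b (0.0562). None of those 6 genes passed, and the lowest limma adjusted p among them was 0.607.

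In the list of endosomal nucleic acid sensing and interferon induction, 14 genes were measured. Of these, 1 passed as higher, 1 as lower and 12 did not pass, beside 1.08% higher and 0.591% lower over all genes. The median difference of the list was 0.01. Myd88, the adaptor below Tlr7 and Tlr9, read 9.42, 10.05 and 10.16 in knockout cells, against 8.88, 8.82 and 8.64 in wild-type cells, and rose by 1.1 (SE 0.19, limma adjusted p = 0.0436). Cd180, a Toll-like receptor relative that lies on the cell surface and acts mainly in B cells, so not itself an endosomal sensor, fell by 0.82 (SE 0.14, limma adjusted p = 0.0438), with readings of 6.11, 5.98 and 5.82 in knockout cells and 6.54, 6.80 and 7.02 in wild-type cells. With 1 array left out each of them passed in 1 of 6 fits, without knockout replicate 1 (Myd88 adjusted p = 0.00539, Cd180 adjusted p = 0.0481). With a trended prior Cd180 did not pass (limma adjusted p = 0.0576), and Irf8, an interferon regulatory factor of dendritic cells, passed as lower (-0.59, limma adjusted p = 0.0494).

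The receptors and factors that define plasmacytoid sensing were chosen for description after their values were seen. Tlr7 averaged 7.77 ± 0.10 in knockout and 7.78 ± 0.36 in wild-type cells (SD, n = 3 each), with a 95% interval of -0.41 to 0.40 for the difference, on the brightest of its 3 probe sets. The other Tlr7 probe sets stood at -0.48 (limma adjusted p = 0.558) and -0.71 (limma adjusted p = 0.216), so the probe sets disagree in size. Tlr9 averaged 4.44 ± 0.16 in knockout and 4.54 ± 0.10 in wild-type cells, and Irf7, the main inducer of type I interferon in plasmacytoid cells, 8.36 ± 0.28 in knockout and 8.38 ± 0.46 in wild-type cells (SD, n = 3 each). Neither passed (limma adjusted p = 0.828 and 0.985). Interferon-stimulated genes respond to the cytokine these cells make. Of 18 measured, 0 passed as higher and 1 as lower, beside 1.08% and 0.591% of all genes, with a median difference of -0.15. That gene was the chemokine Cxcl10 (-1.31, SE 0.13, limma adjusted p = 0.00611), and the call held in 6 of 6 fits that omitted 1 array. The protease Usp18 also passed as lower without knockout replicate 1 (-1.35, limma adjusted p = 0.0164), and Mx1, an antiviral GTPase, without knockout replicate 3 (-0.82, limma adjusted p = 0.0455).

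Of 20 transcription factors that set the plasmacytoid against the conventional fate, 0 passed in either direction, beside 1.08% higher and 0.591% lower over all genes. At an unadjusted p under 0.05 (limma) there were 7, beside 16.4% of all genes, and the median difference of the list was -0.05. The smallest p-values were those of Zbtb46, a factor of conventional dendritic cells (-0.75, SE 0.15, limma adjusted p = 0.0621), and Id3, an inhibitor of E proteins (1.01, SE 0.21, limma adjusted p = 0.0791). Zbtb46 passed as lower without knockout replicate 1 (-0.90, limma adjusted p = 0.0184), when its probe sets were averaged (-0.60, limma adjusted p = 0.0336) and on its probe set with the smallest p (-0.93, limma adjusted p = 0.0287). Of its 4 probe sets 3 were lower, and the differences ran from -0.93 to 0.10. With a trended prior Irf8 passed as lower and Nfil3, a factor needed for conventional dendritic cells of the Cd8a type, as higher (1.28, limma adjusted p = 0.0430). Id3 read 5.09, 4.94 and 5.82 in knockout cells, against 4.22, 4.20 and 4.41 in wild-type cells.

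Because Spib and Ly6d are shared with other lineages, marker lists of those lineages are set beside them. Of 14 measured B cell markers, 0 passed as higher and 1 as lower, 11 differences were negative, and the median was -0.23. Over all genes 1.08% passed as higher and 0.591% as lower, 9217 of 17097 differences were negative, and the median was -0.02. The mean log2 level of the B cell list ran from 5.13 to 5.22 in the knockout arrays and from 5.34 to 5.43 in the wild-type arrays. These ranges did not overlap, but neither did those of the measured markers or of the conventional dendritic cell, plasma cell and macrophage lists. The B cell marker that passed was Cd22, an inhibitory B cell receptor of the Siglec family that dendritic cells can also express. It read 8.48, 8.04 and 8.27 in knockout cells, against 9.09, 9.29 and 9.01 in wild-type cells (-0.87, SE 0.14, limma adjusted p = 0.0306). With 1 array left out Cd22 passed without knockout replicate 1 (adjusted p = 0.0211) and in none of the other 5 fits. In the fit without knockout replicate 1 the B cell scaffold gene Bank1 passed as higher (1.23, limma adjusted p = 0.00548). The complement receptor Cr2 stood at -0.53 (SE 0.10, limma adjusted p = 0.0522) and passed as lower with array weights (limma adjusted p = 0.0361) and in the fit over genes with averaged probe sets (limma adjusted p = 0.0281). Its mean level was 3.79 in knockout and 4.32 in wild-type cells, beside array medians of 3.77 to 3.81.

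The defining B lineage factors were dim in both groups; these and Ms4a1 were chosen for description after their values were seen. Pax5 averaged 3.33 ± 0.04 in knockout and 3.41 ± 0.28 in wild-type cells, and Ebf1 3.29 ± 0.10 in knockout and 3.26 ± 0.11 in wild-type cells (SD, n = 3 each), below the array median on 6 of 6 arrays for both genes. Of the 14 markers, 7 were above the array median on every array, a share close to the 53.8% over all genes, among them Ms4a1, the B cell antigen CD20, at 7.88, 8.01 and 8.41 in knockout cells, against 8.88, 8.55 and 8.38 in wild-type cells. The part of B cells in the Spib difference was not tested.

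For the plasma cell and the T and NK cell lists, the shares over all genes are again 1.08% higher and 0.591% lower. At an unadjusted p under 0.05 (limma) the share is 16.4%. Of 6 plasma cell markers 0 passed (limma, 3 at an unadjusted p under 0.05, median 0.02). The smallest p-values were those of the transcriptional repressor Prdm1 (1.72, SE 0.40, limma adjusted p = 0.107) and of Derl3, an endoplasmic reticulum protein (-0.43, SE 0.13, limma adjusted p = 0.208). Of 11 T and NK cell markers 0 passed (limma, 1 at an unadjusted p under 0.05, median -0.13), led by the granzyme Gzma (0.59, SE 0.21, limma adjusted p = 0.293) and the receptor Ncr1 (-0.22, SE 0.10, limma adjusted p = 0.425). Mean levels in knockout and wild-type cells were 3.81 and 4.24 for Derl3, 4.54 and 3.95 for Gzma, and 3.51 and 3.72 for Ncr1. The array medians were 3.77 to 3.81.

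Conventional dendritic cell genes were examined as a check of the labelled cell type. All 16 measured markers of that type were above the array median on every array, beside 53.8% of all genes. Itgax, the gene for CD11c and named outside the rule because it defines the sort, stood at 10.93 ± 0.10 in knockout and 11.16 ± 0.16 in wild-type cells (SD, n = 3 each). Of the 16 markers 3 passed as higher and 0 as lower, beside 1.08% and 0.591% of all genes, with a median of -0.03. The lectin Clec10a, which plasmacytoid cells of the mouse can also carry, rose by 1.99 (SE 0.16, limma adjusted p = 0.00260, 6 of 6 fits that omitted 1 array). The integrin subunits Itgae and Itgam rose by 1.79 (SE 0.25, limma adjusted p = 0.0211, 4 of 6 fits) and 1.31 (SE 0.23, limma adjusted p = 0.0466, 1 of 6 fits, that without knockout replicate 1). Itgae did not pass without knockout replicate 2 or without wild-type replicate 1, where its adjusted p was 0.106 and 0.0709, and in each of those fits Clec10a was the 1 marker that passed. Without knockout replicate 1 the cell adhesion gene Esam was among those that passed as lower (-1.33, limma adjusted p = 0.0344), with Zbtb46.

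Splenic macrophage markers included several that rose. Of 14 measured, 4 passed as higher and 0 as lower, 12 differences were positive, and the median was 0.49. Over all genes 1.08% passed as higher and 0.591% as lower, 7880 of 17097 differences were positive, and the median was -0.02. The 2 negative differences, named outside the rule, were those of Hmox1 (-0.53) and Adgre1 (-0.28). The mean log2 level of the macrophage list ran from 6.91 to 7.35 in the knockout arrays and from 6.57 to 6.72 in the wild-type arrays. The 4 were the scavenger receptor Cd163 (1.58, SE 0.18), the efferocytosis receptor Mertk (1.16, SE 0.14), the secreted Cd5l (1.51, SE 0.20) and transferrin, Trf (0.97, SE 0.15), with a limma adjusted p of 0.0291 or less each. When single arrays were omitted they passed in 5, 3, 2 and 1 of 6 fits in that order, and the count for the list was 0 without knockout replicate 2, 1 without wild-type replicate 2, 2 without wild-type replicate 1 or 3, and 3 without knockout replicate 1. It was 6 without knockout replicate 3, where the complement genes C1qa, C1qb and C1qc also passed (limma adjusted p = 0.0252, 0.00934 and 0.0380). Cd163 averaged 3.81 in wild-type cells, near the array median, and 5.38 in knockout cells. The part of macrophages in the marker differences was not tested.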

How the data were processed

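The authors deposited log2 values. Per the submitters' processing notes they used RMA (background correction, quantile normalization and probe set summary) and Affymetrix Expression Console 1.1; the log base was taken from the range of the values. Of 45141 probe sets, 104 controls were left out and 45037 tested. The platform annotation gave 28898 of them 1 symbol, 551 several and 15588 none, and 28689 matched the RefSeq gene table, which changed 0 symbols. The table held 0 pairs of identical arrays. The brightest probe set of a gene, by its mean over the 6 arrays, stood for it.

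Differences are knockout minus wild type, from limma 3.58.1 (lmFit and eBayes without covariates) in R 4.3.3. P-values were adjusted by Benjamini-Hochberg over every probe set tested, and a call needed an adjusted value under 0.05. The intervals are 95% intervals of that fit. The members, lists and tests were chosen with earlier results of these data known. Genes named were all members, the 3 genes most alike in pattern, and from each list up to 4 past the threshold or, with fewer than 2 passing, those with the 2 smallest p-values; exceptions are stated. Alternatives covered the probe sets tested, normalization, variance model, threshold, probe set choice, a replicate block and leaving out each array. In simulated data with 45037 probe sets, changes between knockout and wild type were placed in probe sets brighter than the median one. The limma step found 10% of log2 changes of size 0.5, 76% of size 1, 98% of size 2 and 100% of size 3. Over all these sizes together there were 5 false calls among 147. Figures used matplotlib 3.10.9 in Python 3.11.15. The genome build behind the probe annotation is not given in the sources used here, so probe sets carry no coordinates; those of the promoter windows belong to the RefSeq table.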

Additional observations from a re-analysis of the deposited data

How the results depend on the processing

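Of the marker differences, those of Spib and Ly6d kept their direction under 16 alternatives and that of Pacsin1 reversed in 2, to 0.14 without knockout replicate 3 and 0.09 without wild-type replicate 1; in the fits with 1 array left out Pacsin1 ran from -0.13 to 0.14, Ly6d from -0.80 to -0.23 and Spib from -0.98 to -0.68. Spib passed with array weights (-0.80) and after averaging the probe sets of each gene (-0.88, where fewer tests were adjusted for), so 1 marker gene was then lower, as at an adjusted p under 0.1, and 1 marker probe set with array weights or at that threshold; 0 markers were lower in any fit with 1 array left out. Of the other plasmacytoid genes, 2 were lower among probe sets above the median level, with a trended prior, with array weights and at an adjusted p under 0.1, and 1 after averaging probe sets or taking that with the smallest p, against 0 as reported, while 2 were higher with a trended prior and 1 at an adjusted p under 0.1 (with 1 array left out, 0 to 2 lower and 0 to 1 higher).

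Counts of probe sets, 362 higher and 176 lower as reported, were 709 and 447 at an adjusted p under 0.1, 108 and 26 under 0.01, 209 and 71 at 2-fold or more, and 268 lower with array weights. With 1 array left out they ran from 100 to 498 higher and from 25 to 362 lower, the fewest without knockout replicate 2. Replicates of the same number deviated together with correlations of 0.05, 0.13 and 0.32, and those of different numbers with -0.28 to 0.22. Knockout replicate 1 correlated best with wild-type replicate 2 (0.22). The reported fit did not take the labels' numbers as pairs, and these correlations do not settle whether they are. With the replicate block 567 probe sets were higher and 426 lower, 1 of the other plasmacytoid genes (Cd8a) was lower, Id3, Nfil3 and Prdm1 passed as higher, Irf8 and Xcr1 passed as lower, Cd180 did not pass, and Spib stood at -0.88 (limma adjusted p = 0.0504). Of 304 counts for the remaining lists under alternatives, 174 were 0 there and as reported, which says nothing of stability, 79 stayed within 1.5 times and 51 moved further; an equal count need not mean the same genes. The cause of these shifts was not tested.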
